A study of Mus musculus with 141 samples.

Results

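The levels of 8 genes of the alveolar type 1 cell and of caveolae were described across tissues and strains of the Collaborative Cross (CC), a panel of recombinant inbred mouse strains bred from a shared set of founders. The genes were chosen by name: *Ager*, *Hopx*, *Pdpn*, *Rtkn2*, *Emp2*, *Cav1*, *Cav2* and *Akap5*, 8 of the 24423 genes in each file, and each is present in every file. RNA-seq libraries came from lung, liver and kidney of 47 strains with 1 male mouse per strain, so the 3 groups hold 47 libraries each. The mice were 8 to 12 weeks old and ate an NTP 2000 diet. Before tissue collection they spent 6 h a day on weekdays over 2 weeks in mesh chambers with clear air, a treatment that all groups share. Since each strain is represented by 1 mouse, a difference between strains cannot be told apart from a difference between individual animals.

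Alveolar type 1 cells are the thin, flat cells that line most of the gas exchange surface of the lung. They carry many caveolae, flask-shaped pits of the plasma membrane built from caveolins and coated by cavins. *Ager* encodes the receptor for advanced glycation end products, *Pdpn* the mucin-like membrane protein podoplanin, and *Hopx* a small homeodomain protein that does not bind DNA. *Rtkn2* is a further gene known from type 1 cells. *Emp2* encodes a tetraspan membrane protein, *Cav1* the main structural caveolin, *Cav2* its partner, and *Akap5* an anchor that holds protein kinase A and calcineurin near the membrane. Caveolins are also abundant in endothelium, and podoplanin is known from podocytes, mesothelium and lymphatic endothelium. In bulk tissue, fewer cells of a type and less RNA per cell cannot be told apart.

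Total counts ranged from 2829104 to 17585682 in lung (median 9338124), from 1738046 to 42158454 in liver (median 10423382) and from 3046695 to 15028553 in kidney (median 8245850). The tissue labels matched their defining markers. The summed level of *Sftpc*, *Sftpb*, *Sftpa1*, *Scgb1a1* and *Cxcl15* was at least 32360 TMM-normalized TPM in every lung, against at most 674 in any liver and 483 in any kidney. TPM is a level per transcript length with a fixed sum in each library, and TMM is the trimmed mean of M-values, which rescales the libraries to one another. The rescaling bears on these genes because the ribosomal *Rn45s* and the mitochondrial tRNA synthetase gene *Lars2* took between 0.428% and 81.7% of the deposited TPM of a lung (median 12.3%). The lungs of CC015 and CC055 had the highest shares, 81.7% and 70.4%.

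In lung, *Emp2* was listed with the highest median level of the 8 genes and *Ager* with the lowest. *Emp2* ranged from 328 to 750 TMM-normalized TPM over the 47 lungs, with a median of 534. *Cav2* ranged from 76.6 to 360 (median 212), *Akap5* from 17.3 to 336 (median 211) and *Rtkn2* from 93.0 to 225 (median 154). The other 4 genes had medians of 13.03 or less. *Hopx* ranged from 7.05 to 42.3 TMM-normalized TPM (median 13.03), *Cav1* from 3.59 to 40.5 (median 8.00), *Pdpn* from 0 to 9.20 (median 5.16) and *Ager* from 0 to 5.77 (median 3.01). The counts behind the lower levels were small. The median lung had 18 counts of *Ager*, 39 of *Pdpn*, 75 of *Hopx* and 97 of *Cav1*, against 2716 of *Cav2*, 2775 of *Rtkn2*, 6233 of *Akap5* and 8025 of *Emp2*.

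**Figure D1:**
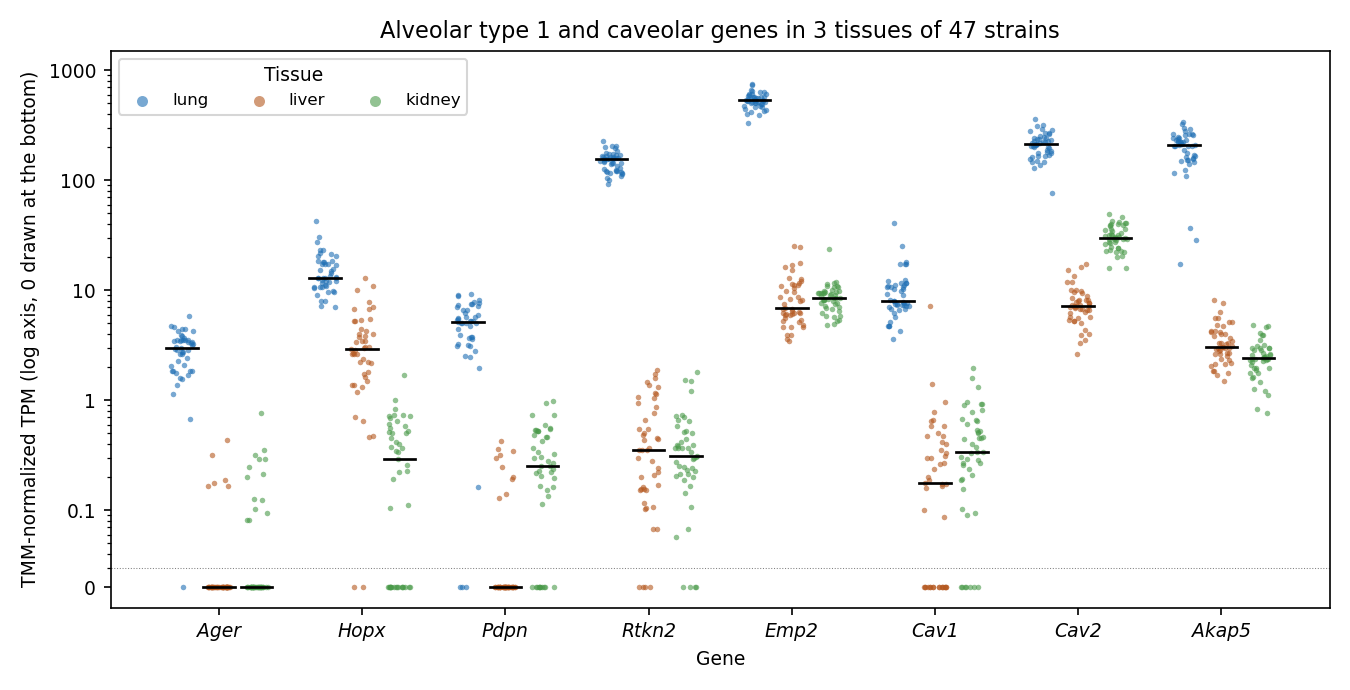
Level of each gene in 47 lungs, 47 livers and 47 kidneys, as TMM-normalized TPM on a log axis with 0 drawn at the bottom. Each point is 1 library and each bar a median. Every lung lies above every liver and kidney for *Rtkn2*, *Emp2*, *Cav2* and *Akap5*, and the medians of *Ager* and *Pdpn* outside lung are between 0 and 0.254.

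Levels over all genes were lower where the files list more transcripts for a gene. *Rtkn2*, *Emp2* and *Akap5* have 1 listed transcript, *Pdpn*, *Cav1* and *Cav2* have 2, *Hopx* has 3 and *Ager* has 7. Among the 8 the order did not follow that number throughout, as *Cav2* was above *Rtkn2* and *Hopx* above *Cav1*. Over all genes, 581 of 18311 with 1 listed transcript (3.17%) had a median lung level above 100 TMM-normalized TPM. The same was true of 7 of 3401 genes with 2 transcripts (0.206%), *Cav2* among them, and of 3 of 2711 with 3 or more (0.111%). The type 1 genes *Cldn18* with 4 listed transcripts and *Vegfa* with 10, both outside the 8, are listed at 0 counts in every library of the 3 tissues. The study's methods state that expression was quantified from reads with a unique alignment. Whether a read shared by transcripts of 1 gene counted as unique is not stated, and the part of this step in these levels was not tested. Most tissue and strain comparisons that follow set each gene against itself. Rankings of the genes by fold change, share of the lung level or spread do not, nor does the ratio of *Cav1* to *Cav2*, compared between tissues and among lungs. Whether this step acts alike in every tissue and strain was not tested.

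**Figure D2:**
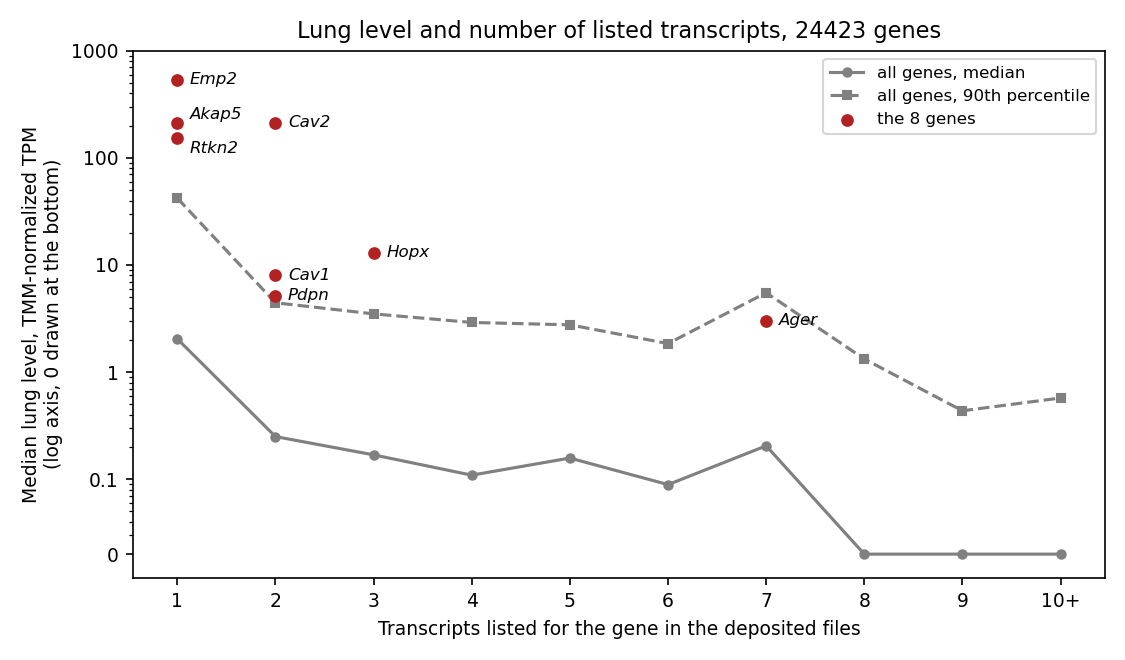
Median level over 47 lungs, in TMM-normalized TPM on a log axis with 0 drawn at the bottom, against the number of transcripts listed for a gene. Grey lines give the median and the 90th percentile of all 24423 genes and red points the 8 genes, of which only *Ager* lies under the 90th percentile for its number of transcripts.

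Upstream sequence is given for 4 genes, for the reasons that follow. *Akap5* and *Cav2* were called as correlated across lungs (r = 0.411, permutation q = 0.089), a call that most alternatives did not keep. *Cav1* and *Cav2* are neighbours with unlike counts, and *Emp2* had the highest listed level. In the genome build of the files (NCBIM37), *Cav2* lies at chr6:17231185-17239115 and *Cav1* at chr6:17256335-17291452, both on the plus strand and 17219 bases apart. *Akap5* lies at chr12:77425878-77435140 on the plus strand and *Emp2* at chr16:10281842-10314061 on the minus strand. RefSeq promoters (GRCm38.p6, from 250 bases before to 50 after a start) were found for 7 of the 8 genes, with 2 starts each for *Cav1* and *Hopx*. *Rtkn2* was not in the table. Capitals mark the letters GGGCGG, the GC box bound by the Sp1 family, and CAAGTG, the core of the site of the lung factor Nkx2-1, on either strand. The windows printed here are chr12:76324641-76324940 (plus strand) for *Akap5*, chr6:17280935-17281234 (plus) for *Cav2*, chr6:17306085-17306384 and chr6:17307390-17307689 (plus) for the 2 starts of *Cav1*, and chr16:10313919-10314218 (minus) for *Emp2*.
Akap5: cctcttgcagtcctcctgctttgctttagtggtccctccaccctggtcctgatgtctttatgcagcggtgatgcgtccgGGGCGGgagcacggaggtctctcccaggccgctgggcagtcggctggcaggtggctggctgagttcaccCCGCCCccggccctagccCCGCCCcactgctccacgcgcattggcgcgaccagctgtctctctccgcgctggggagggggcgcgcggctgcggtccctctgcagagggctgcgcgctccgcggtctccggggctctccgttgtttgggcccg
Cav2: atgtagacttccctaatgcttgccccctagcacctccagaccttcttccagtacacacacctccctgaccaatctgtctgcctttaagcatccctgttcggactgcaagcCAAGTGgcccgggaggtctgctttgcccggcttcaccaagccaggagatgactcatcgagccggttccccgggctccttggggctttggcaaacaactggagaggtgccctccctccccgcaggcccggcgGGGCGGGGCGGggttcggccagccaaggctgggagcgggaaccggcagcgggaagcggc
Cav1 first start: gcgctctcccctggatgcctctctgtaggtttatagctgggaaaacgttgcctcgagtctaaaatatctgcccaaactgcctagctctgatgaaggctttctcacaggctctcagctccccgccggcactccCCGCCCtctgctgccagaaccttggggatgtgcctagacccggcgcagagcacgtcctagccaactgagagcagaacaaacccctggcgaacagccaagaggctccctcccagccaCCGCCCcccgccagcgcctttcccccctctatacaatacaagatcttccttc
Cav1 second start: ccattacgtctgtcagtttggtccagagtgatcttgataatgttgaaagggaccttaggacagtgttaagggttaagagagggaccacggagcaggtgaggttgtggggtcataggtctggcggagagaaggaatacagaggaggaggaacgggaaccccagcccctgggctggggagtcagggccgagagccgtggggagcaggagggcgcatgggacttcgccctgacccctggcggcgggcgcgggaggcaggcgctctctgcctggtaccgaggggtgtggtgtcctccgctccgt
Emp2: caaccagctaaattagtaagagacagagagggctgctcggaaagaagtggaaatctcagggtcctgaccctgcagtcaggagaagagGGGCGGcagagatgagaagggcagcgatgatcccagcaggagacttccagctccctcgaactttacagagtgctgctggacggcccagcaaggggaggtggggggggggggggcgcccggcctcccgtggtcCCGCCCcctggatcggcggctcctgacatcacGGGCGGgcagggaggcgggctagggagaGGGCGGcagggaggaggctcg
GGGCGG was found 3 times in the *Akap5* window, 4 times in that of *Emp2*, 2 times in that of *Cav2*, where the 2 matches overlap by 1 base, and 2 times at the first start of *Cav1* but not at the second. At least 1 match was present in 5 of the 9 promoters of the 8 genes and in 35.7% of all 32851 promoters. CAAGTG was in 2 of the 9 promoters, those of *Cav2* and of 1 start of *Hopx*, and in 13.6% of all. GGAATG, the core of the TEAD site, was in none of the 9 and in 14.7% of all promoters. The *Akap5* window had 70.7% G and C, above the value of 91.4% of all promoters, and 27 CpG dinucleotides, where the median promoter has 7. A match is a description of the window only.

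The comparison of liver with lung asked how far the 8 genes separate these tissues. Genes were tested with limma-voom on TMM-scaled counts with strain as a replicate block, over the 12127 genes above 1 CPM (a count scaled to library size) in at least 30% of the libraries, with Benjamini-Hochberg adjustment. A call needed q ≤ 0.1 and a log2 fold change of 1 or more in either direction. *Ager* and *Pdpn* did not pass the filter, so 6 of the 8 genes were tested. With no such filter, with only 2 tissues in the fit or without *Rn45s* and *Lars2*, both were tested and all 8 were called as higher in lung against each tissue. The share of all genes called was not taken for these fits, so this count is a description. The filter could be met by the lungs alone, and *Hopx*, *Rtkn2* and *Cav1* did not pass it over liver and kidney alone. A gene that passes through lung had to be higher there, so the counts against lung are a description. Each of these 6 was called as higher in lung, a call made for 31.2% of all genes tested, where 54.9% were called in either direction. *Rtkn2* had the largest difference, 206.7 ± 40.4 CPM in lung and 0.792 ± 0.789 in liver (SD, n = 47), or a log2 fold change (liver minus lung) of -8.39 ± 0.11 (SE, q = 2.8e-85). *Emp2* followed at -5.88 ± 0.07, then *Akap5* at -5.69 ± 0.10, *Cav1* at -4.79 ± 0.14 and *Cav2* at -4.72 ± 0.07. *Hopx* had the smallest, -2.16 ± 0.14 (q = 2.5e-28). Lung exceeded liver of the same mouse in 47 of 47 strains for *Rtkn2*, *Emp2*, *Cav1*, *Cav2* and *Akap5* and in 46 of 47 for *Hopx*. The exception for *Hopx* was CC004, with 13.03 TMM-normalized TPM in liver and 8.00 in lung.

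Against kidney the same 6 genes were called as higher in lung, as were 24.6% of all genes, with 46.3% called in either direction, and the same limit of the filter holds. Log2 fold changes (lung minus kidney) were 8.67 ± 0.11 for *Rtkn2*, 6.24 ± 0.10 for *Akap5*, 5.93 ± 0.07 for *Emp2*, 5.24 ± 0.15 for *Hopx*, 4.44 ± 0.13 for *Cav1* and 2.71 ± 0.06 for *Cav2* (SE). The highest q was 2.5e-54, for *Cav1*, and lung was higher in 47 of 47 strains for each. This comparison shares the lungs with the one above. *Cav2* had the smallest difference. Its kidney level ran from 15.8 to 49.7 TMM-normalized TPM with a median of 30.1, and every lung was at 76.6 or above.

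Between liver and kidney, 2 of the 6 genes were called, against 36.6% of all genes, and 4 were under the fold threshold. *Hopx*, *Rtkn2* and *Cav1* were in this test only through their lung level. With liver and kidney fitted alone, 3 genes were tested and 1, *Cav2*, was called, with no share of all genes taken for that fit. Liver was higher for *Hopx*, by 3.08 ± 0.15 on the log2 scale (SE, q = 1.4e-37, 45 of 47 strains), a call made for 14.7% of all genes. Kidney was higher for *Cav2*, with a log2 fold change (liver minus kidney) of -2.01 ± 0.07 (q = 6.5e-50, 47 of 47 strains), as for 22.0% of all genes. *Hopx* ranged from 0 to 13.03 TMM-normalized TPM in liver (median 2.91) and from 0 to 1.70 in kidney (median 0.290). It had 3 or fewer counts in 12 livers and in 41 kidneys. Log2 fold changes were 0.55 ± 0.10 for *Akap5* (q = 3.1e-07), 0.28 ± 0.11 for *Rtkn2* (q = 0.014), 0.05 ± 0.07 for *Emp2* (q = 0.5) and -0.35 ± 0.14 for *Cav1* (q = 0.013). The direction of 3 of them changed with the scaling. Scaling by total counts moved the median of all genes from -0.07 to -0.95 and gave -0.36 for *Akap5*, -0.61 for *Rtkn2* and -0.89 for *Emp2*, each above that median.

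**Figure D3:**
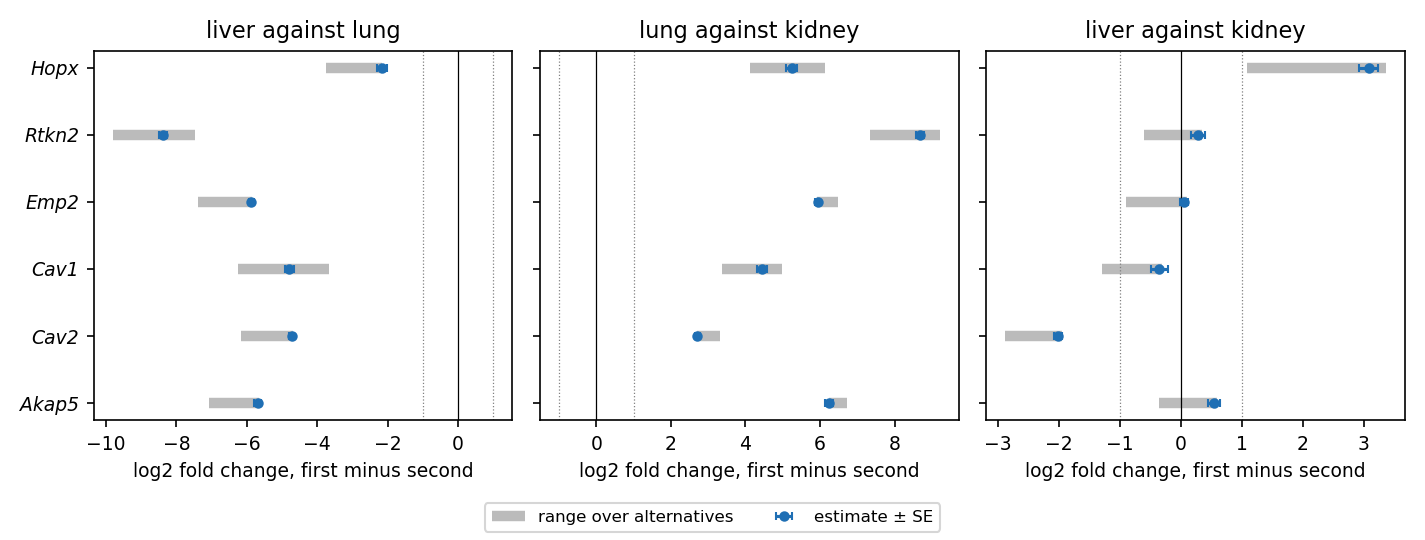
Log2 fold change (first tissue minus second) of the 6 genes tested, in 3 panels for the tissue pairs. Points are estimates with their SE, grey bars the range over the alternative fits, and dotted lines the fold threshold of 1 on the log2 scale. All bars of both comparisons with lung lie beyond the threshold, while those of *Rtkn2*, *Emp2* and *Akap5* cross 0 between liver and kidney.

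For *Ager* and *Pdpn* the counts themselves are given. *Ager*, the receptor for advanced glycation end products, had 986 counts summed over the 47 lungs, 6 over the livers and 15 over the kidneys. Lung was higher than liver and than kidney in 46 of 47 strains, and CC015 had 0 counts in all 3 tissues. *Pdpn* had 2085 counts over the lungs, 14 over the livers and 95 over the kidneys. Lung was higher in 44 of 47 strains against each of the other tissues, and the remaining 3 had 0 counts in all tissues. Kidney *Pdpn* was above 0 in 36 of 47 libraries but above 3 counts in only 7. Of 6 podocyte markers 5 were tested, of which 2 were higher in kidney than in lung, *Nphs1* among them (-7.35 ± 0.12, lung minus kidney, SE), and 3 were not called, with *Podxl* at 0.85 and *Synpo* at 0.96. The median of the 5 was -0.89, and the part of podocytes in kidney *Pdpn* was not tested.

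As a share of the level in the lung of the same mouse, the 8 genes differed in what remained outside lung. The median liver held 20.1% of the lung level of *Hopx*, 3.73% of *Cav2*, 2.15% of *Cav1*, 1.72% of *Akap5*, 1.49% of *Emp2* and 0.194% of *Rtkn2*. The median kidney held 14.1% of *Cav2*, 4.36% of *Pdpn*, 3.92% of *Cav1*, 1.74% of *Hopx*, 1.68% of *Emp2*, 1.20% of *Akap5* and 0.217% of *Rtkn2*. These shares depend on the scaling. Deposited TPM of *Hopx* had a median of 1.74 in liver and 22.4 in lung, where the TMM-normalized medians were 2.91 and 13.03. For *Cav2* the deposited medians were 4.28 in liver, 34.9 in kidney and 336 in lung, and the TMM-normalized ones 7.24, 30.1 and 212. Shares of the 5 lung-defining genes were measured the same way. Their medians lay between 0.0317% (*Sftpb*) and 0.413% (*Sftpa1*) in liver and between 0 (*Sftpb*) and 0.110% (*Sftpc*) in kidney. *Rtkn2* in liver was within that range and the other 5 named for liver were above it. The part of lung RNA in the liver and kidney values was not tested.

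The other genes of these pathways gave the following counts, from lists chosen with earlier results of these data known. The limit of the filter holds for these lists too. A list gene that passed through its lung level had to be higher there, so their counts against lung are a description. Of 18 further alveolar type 1 genes, 15 were tested, and 12 of them were higher in lung than in kidney, where 24.6% of all genes were. Of the rest, 1 was higher in kidney, as were 21.7% of all genes, and 2 were not called. The median log2 fold change was 3.65, against -0.02 over all genes. The largest were 8.63 ± 0.13 for the water channel gene *Aqp5*, 6.86 ± 0.11 for *Gprc5a*, 6.69 ± 0.10 for *Gramd2*, 6.00 ± 0.16 for *Spock2* and 4.69 ± 0.20 for the semaphorin gene *Sema3a* (SE). *Sema3a* was low, with a median of 1.005 TMM-normalized TPM in lung and 0 counts in 32 kidneys. Its change ran from 1.34 to 5.23 over the scalings. *Timp3*, an inhibitor of metalloproteinases, went the other way at -1.44 ± 0.07, a call that was lost under scaling by total counts and on both log2 TPM scales. Against liver, 14 were higher in lung, where 31.2% of all genes were, and *Igfbp2*, which encodes a binding protein of insulin-like growth factors, was higher in liver (2.91 ± 0.21, liver minus lung), as were 23.7% of all genes.

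Among 12 further genes of the caveolar coat, 8 were tested and 6 were higher in lung than in kidney (median log2 fold change 3.09), where 24.6% of all genes were. The same limit of the filter holds for each list of this paragraph. Endothelial markers moved with them, with 7 of 8 tested higher in lung (median 2.76), as did smooth muscle markers, with 6 of 6 (median 3.35), and their part was not tested. *Murc*, the muscle cavin also known as Cavin4, differed by 4.72 ± 0.26, *Sdpr* (Cavin2) by 3.61 ± 0.06, *Ehd2* by 3.58 ± 0.07, *Ptrf* (Cavin1) by 3.27 ± 0.07 and *Ehd4* by 2.91 ± 0.05 (SE). *Murc* had 0 counts in 33 kidneys, and its change ran from 2.56 to 5.25 over the scalings. *Ehd3*, a membrane ATPase of the same family as *Ehd2*, was higher in kidney at -1.07 ± 0.06, a call that was lost under each of the 4 other scalings. It was also higher in liver than in lung (2.47 ± 0.06, and 0.99 on log2(TPM + 1)). Of 12 genes for proteins that bind the products of the 8 genes, 10 were tested and 3 were higher in lung than in kidney, a share near the 24.6% of all genes. These were *S100a8*, a ligand of the *Ager* receptor, at 5.03 ± 0.14, *Msn*, whose product moesin binds podoplanin, at 2.13 ± 0.06, and *Ppp3ca*, the calcineurin subunit that *Akap5* anchors, at 1.02 ± 0.09 and at 0.99, under the threshold, with another scaling. The median of the 10 was 0.58, and 7 were not called. Scaling by total counts gave 6 calls in place of 3, with the median of all genes at 0.46 in place of -0.02.

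*Cav1* and *Cav2* were measured in the same library as a ratio of counts, which is not corrected for their lengths. Whether reads shared by the 2 listed transcripts of each gene were counted is not stated. Their part in the ratio was not tested, so it is a ratio of counts and not of RNA amounts. Summed over the 47 lungs there were 137713 counts of *Cav2* and 5904 of *Cav1*, or 23.3 per count of *Cav1*. The kidneys had 70.9 and the livers 16.7. The mean log2 ratio of *Cav1* to *Cav2* (pseudocount 0.5) was -4.56 ± 0.84 in lung, -4.79 ± 1.34 in liver and -6.33 ± 1.23 in kidney (SD, n = 47). Lung exceeded kidney by 1.77 ± 0.25 (SE) in 43 of 47 strains (two-sided permutation test with signs flipped within strains, p = 1e-05, the smallest that 100000 resamples give, q = 3e-05 over 3 comparisons). Liver exceeded kidney by 1.54 ± 0.27 in 38 strains (permutation p = 2e-05, q = 3e-05). Between lung and liver the difference was 0.23 ± 0.22 with lung higher in 23 strains (permutation p = 0.303, q = 0.303), which did not pass the threshold.

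Counts of *Cav1* outside lung limit these ratios. It had 3 or fewer counts in 40 livers and 26 kidneys. In the 21 strains with more than 3 counts of both genes in lung and kidney, the difference was 0.79 ± 0.28, with lung higher in 17 (permutation q = 0.0242). This choice keeps kidneys by their *Cav1* count, a term of the ratio, and their mean ratio was -5.57 in place of -6.33. The smaller difference thus cannot be told apart from the choice of strains. The liver of CC001 alone held 71 of the 148 *Cav1* counts in liver, and without it the livers had 29.8 counts of *Cav2* per count of *Cav1*. In that library *Cav1* was at 7.20 TMM-normalized TPM and *Cav2* at 16.2, where the median liver had 0.178 and 7.24. Its summed endothelial markers were at 149 against a median of 128, higher than in 43 livers, and its lung-defining markers at 260 against 122, higher than in 41 livers. Their part in the *Cav1* value was not tested.

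Across strains, the spread of the 8 genes in lung ran from among the narrow genes to among the wide ones. The standard deviation of the log2 level over 47 lungs was 0.23 for *Emp2*, 0.29 for *Rtkn2*, 0.39 for *Cav2*, 0.55 for *Hopx*, 0.66 for *Cav1*, 0.83 for *Akap5*, 0.91 for *Ager* and 1.60 for *Pdpn*, with 0.1 added before the log. The median over 11506 genes measured in lung was 0.36. Counting error alone, averaged over the lungs with a count of 0 raised to 1, gives 0.45 for *Ager* and 0.47 for *Pdpn*. It gives at most 0.03 for *Emp2*, *Rtkn2*, *Cav2* and *Akap5*. The lungs with the fewest counts weigh most in these values, so those at or near 0 raise the value of *Pdpn*. *Emp2* varied less than all but 20.04% of those genes, with a coefficient of variation of 15.4%. A few strains carried much of the spread of *Akap5* and *Pdpn*, whose median absolute deviation scaled to an SD was 0.45 and 0.70. Without the 3 lowest lungs the coefficient of variation of *Akap5* was 25.7% in place of 34.8%.

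*Akap5*, the kinase anchor, was low in 3 lungs. CC068 had 17.3 TMM-normalized TPM (447 counts), CC039 had 28.7 (1691 counts) and CC045 had 36.4 (477 counts). The next lowest lung, CC040, had 108, and the 44 other lungs ranged up to 336 with a median of 212. The 3 lungs were thus at 8.21%, 13.6% and 17.3% of the median lung, with no lung between them and 51.3%. A lowest lung under 20% of the median occurred in 10 of 1034 genes with a median lung count of at least 1000 (0.967%). Livers of the same 3 strains had 2.71, 2.95 and 2.63, near the liver median of 3.06, and their kidneys had 1.12, 2.37 and 2.87 against a median of 2.42. These values lay within the range of the other strains in both tissues, where kidneys ran from 0.766 to 4.84 and CC068 was the third lowest kidney.

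The other 7 genes were not low together in CC068 or CC045. In CC068, *Emp2* was at 105% of its median lung, *Rtkn2* at 119%, *Cav2* at 87.7% and *Hopx* at 166%. In CC045, *Pdpn* was at 143% and *Cav2* at 77.9%. In CC039 all 7 were below their median lung. *Rtkn2* and *Cav2* were at 68.5% and 65.1%, each the third lowest of 47 lungs, *Ager* was at 61.1%, *Hopx* at 74.7%, *Cav1* at 91.4% and *Emp2* at 94.3%, and *Pdpn* was at 0. The summed further type 1 genes were at 2388 TMM-normalized TPM in CC068, 2001 in CC039 and 1892 in CC045, where the median lung had 2197. Summed type 2 markers were high in all 3, at 23050, 29000 and 25110 against a median of 19250, and CC039 had the highest value of the 47 lungs. The part of cell composition in the *Akap5* values was not tested.

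*Pdpn* was not detected in 3 strains. CC039, CC040 and CC049 had 0 counts in lung, liver and kidney, and CC041 had 2 counts in lung and 0 in the other tissues. The other 43 lungs ranged from 1.97 to 9.20 TMM-normalized TPM with a median of 5.22. Of 10139 genes with a median lung count of at least 20, 33 (0.326%) had 3 or more lungs at 0. A count of 0 allows up to 3 counts in a library, for counting error only. Reads were aligned to a genome made for each strain, and the part of that step in these values was not tested.

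**Figure D4:**
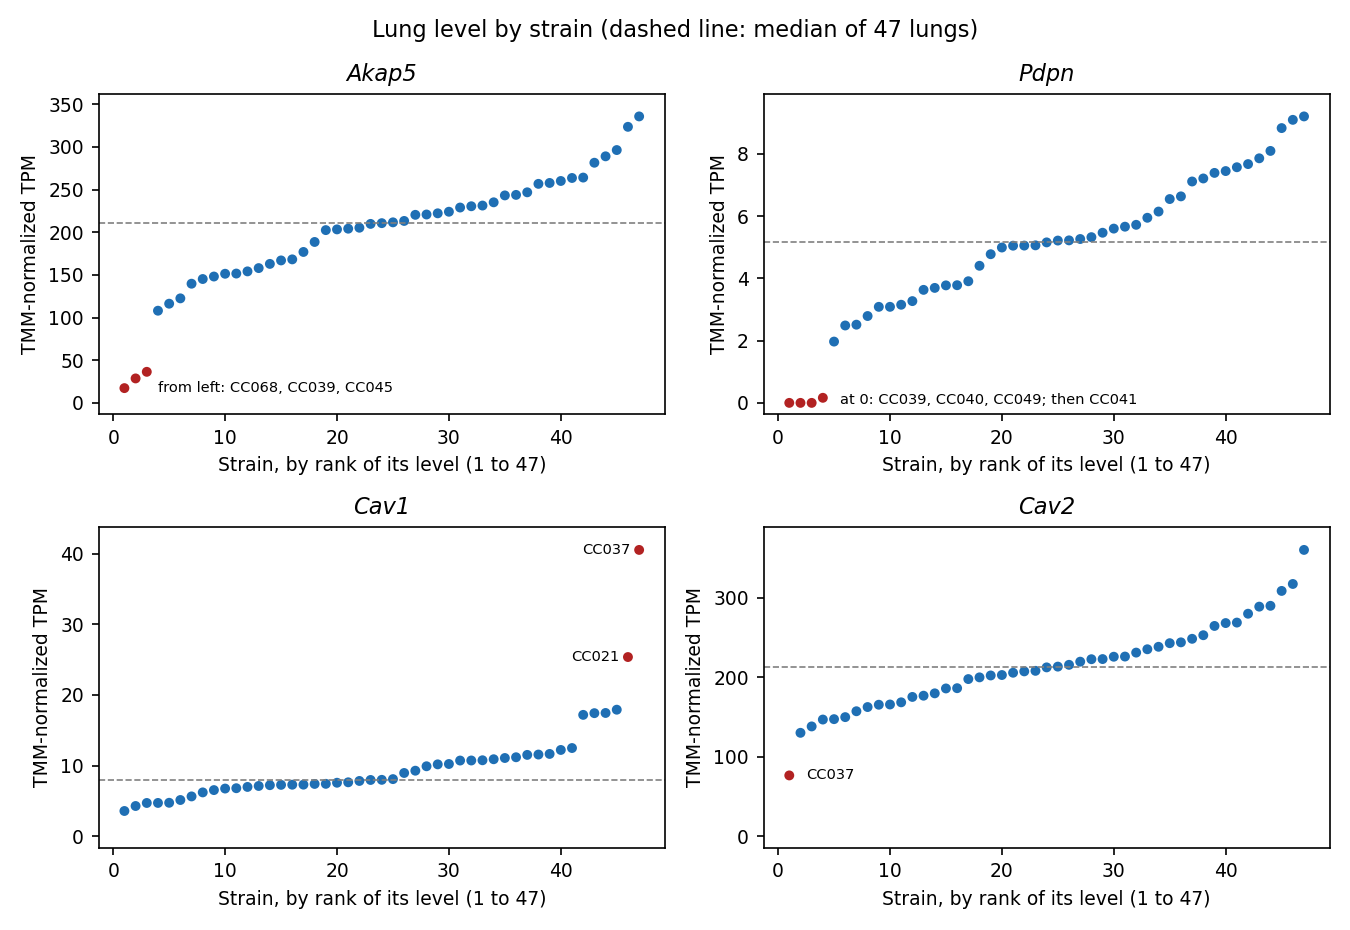
Lung level of *Akap5*, *Pdpn*, *Cav1* and *Cav2* in TMM-normalized TPM for 47 strains ordered by level, with 1 point per mouse and the median as a dashed line. Red points are the strains named in the text: 3 lungs below 40 for *Akap5*, 4 at or near 0 for *Pdpn*, and CC037, highest for *Cav1* and lowest for *Cav2*.

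*Cav1* and *Cav2* moved apart in 1 lung. CC037 had the highest *Cav1* of all lungs, 40.5 TMM-normalized TPM (281 counts), or 507% of the median, and the lowest *Cav2*, 76.6 (519 counts), or 36.1% of the median. Its log2 ratio of counts was -0.88, where the next highest lungs, CC023 and CC021, were at -3.27 and the median lung at -4.68. A highest lung over 5 times the median occurred in 314 of 10139 genes (3.10%). CC021 had the second highest *Cav1*, 25.4, with *Cav2* at 111% of its median. In CC037 the summed endothelial markers were the highest of the 47 lungs, 2261 against a median of 1272, and so were the summed caveolar coat genes, 1506 against 1145. In CC021 these sums were 1305 and 1145. The liver of CC037 had 6 counts of *Cav1*, or 0.590 TMM-normalized TPM, above the liver median of 0.178. Its kidney had 0 counts, where the median kidney was at 0.341. *Cav2* was at 5.03 in that liver and 27.6 in that kidney, below the medians of 7.24 and 30.1.

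*Hopx* was highest in CC017, at 42.3 TMM-normalized TPM (178 counts), and lowest in CC033, at 7.05 (44 counts). The 90th percentile of the lungs was 2.36 times the 10th, against 1.45 for *Emp2*, 1.65 for *Rtkn2* and 1.90 for *Cav2*. *Rtkn2* was highest in CC023 (225) and lowest in CC040 (93.0), and CC040 was among the 5 lowest lungs for *Pdpn*, *Rtkn2*, *Emp2*, *Cav1*, *Cav2* and *Akap5*. *Emp2* was lowest in CC015 (328), the lung with the highest share of *Rn45s* and *Lars2*, and *Ager* had 0 counts there.

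Correlations across the 47 lungs asked whether the 8 genes vary together. Pearson's r was taken on rank inverse normal values of TMM-normalized TPM with 100000 permutations, and q was adjusted over the 8 genes against each of 11506 genes. Of the 28 pairs among the 8 genes, 3 were called at q ≤ 0.1 (10.7%), all positive, where 2.98% of the 92040 tests were called as positive and 2.39% as negative. *Rtkn2* and *Akap5* had r = 0.495 (permutation p = 0.00036, q = 0.0263, Spearman's rho = 0.497, p = 0.00042). *Hopx* and *Cav1* had r = 0.483 (permutation p = 0.00064, q = 0.0343, rho = 0.496, p = 0.00042). *Cav2* and *Akap5* had r = 0.411 (permutation p = 0.00415, q = 0.089, rho = 0.418, p = 0.00365). Without the 2 strains farthest from the median of the first gene, r was 0.389 (permutation p = 0.00869), 0.407 (p = 0.00555) and 0.329 (p = 0.0273). On log2(TPM + 1) the *Rtkn2* and *Akap5* pair had r = 0.291 (q = 0.25) and was not called. The *Cav2* and *Akap5* pair was not called under 5 of the 8 alternatives, with q up to 0.13. Without CC032 and CC042 its r was 0.408 (q = 0.11), and without CC015 and CC055 it was 0.406 (q = 0.12).

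The neighbours *Cav1* and *Cav2* had r = -0.024 over lungs (permutation p = 0.872, q = 0.956). *Ager* was not called with any of the other 7, its extremes being 0.349 with *Emp2* (q = 0.166) and -0.349 with *Rtkn2* (q = 0.163). Over the 28 pairs r ranged from -0.349 to 0.495 with a median of 0.155, against -0.004 for the 8 genes with all genes. No batch is given in the labels, so values within batches could not be computed.

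**Figure D5:**
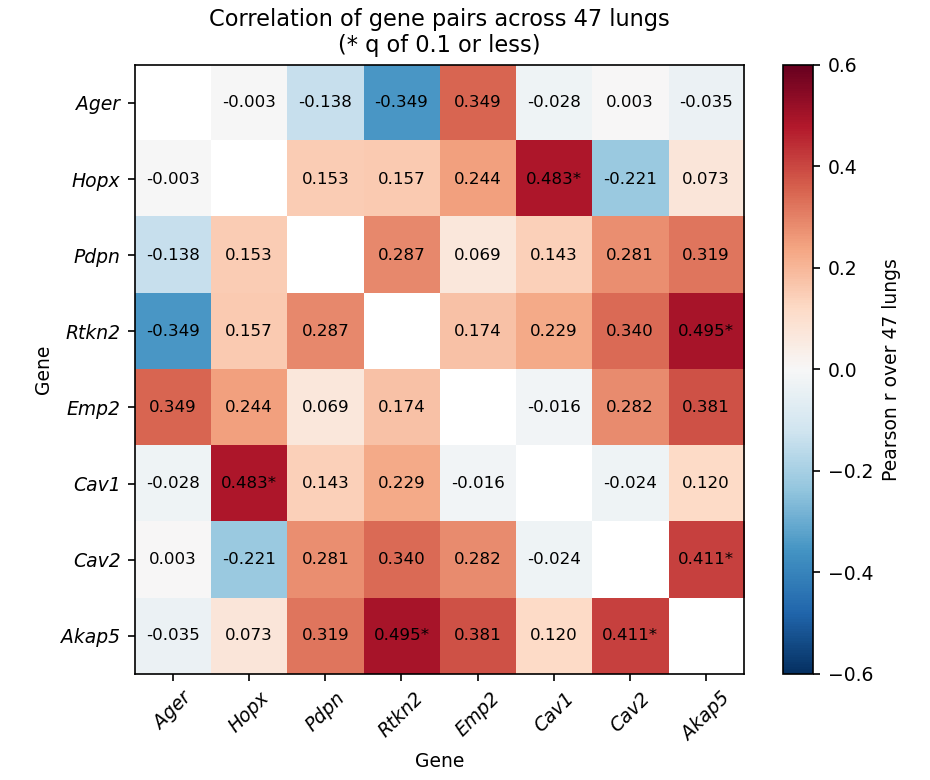
Pearson's r for each pair of the 8 genes over 47 lungs, on rank inverse normal values of TMM-normalized TPM, from blue (negative) to red (positive). Asterisks mark the 3 pairs with q ≤ 0.1, *Hopx* with *Cav1*, *Rtkn2* with *Akap5* and *Cav2* with *Akap5*.

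The number of pairs called changed with the scaling. On the deposited TPM without TMM, 28 of the 28 pairs were called. The share of all tests called on those values was not taken, so this count is a description. As TPM has a fixed sum, a larger share of *Rn45s* and *Lars2* lowers the TPM of the other genes as a whole. The tests on deposited TPM that follow describe a relation set in part by that sum. The deposited TPM of each of the 8 genes fell with the share of *Rn45s* and *Lars2* in the lung, from r = -0.414 for *Pdpn* (permutation p = 0.00374, q = 0.00748, rho = -0.42) to r = -0.828 for *Emp2* (permutation p = 1e-05, q = 4e-05, rho = -0.826). Without the 2 lungs farthest from the median share, these were -0.367 and -0.801. After TMM scaling r lay between -0.262 (*Emp2*, permutation p = 0.0759, q = 0.135) and 0.195 (*Pdpn*, permutation p = 0.188, q = 0.301), 16 relations being tested in all.

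The genes most like each of the 8 over the lungs, by Pearson's r among genes outside them, had r between 0.514 and 0.743. For *Cav2* they were *N4bp2l2* (r = 0.743), *2610002M06Rik* (0.717) and *Zfp563* (0.716), and for *Cav1* *Rbms1* (0.723), *Hist1h4d* (0.665) and *1110038F14Rik* (0.642). *Akap5* was most like *1190002N15Rik* (0.709), with *Mbd2* at 0.645, and *Rtkn2* most like *Gpbp1l1* (0.711), *S1pr1* (0.705) and *Epb41l4b* (0.702). For *Emp2* the genes were *Cmtm4* (0.647), the type 1 gene *Gprc5a* (0.618) and the endothelial *Kdr* (0.610). *Hopx* was nearest to *Cystm1* (0.628), *Slc44a2* (0.620) and *Mapre2* (0.611). The lower counts of *Ager* and *Pdpn* went with lower values, *Pex11g* (0.581), *Tldc1* (0.558) and *Cirbp* (0.550) for *Ager* and *Stx12* (0.580), *Zfp40* (0.522) and *6820431F20Rik* (0.514) for *Pdpn*. The largest permutation q of these genes was 0.019, and they share libraries and depth.

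Markers of cell types stood beside these values as follows, where 2.98% of all tests were called as positive and 2.39% as negative, so that single calls are near the background. Of 15 further type 1 genes measured in lung, 6 were called as positively correlated with *Emp2* (median r = 0.359), 3 with *Rtkn2* (0.207), 2 each with *Cav2* (0.082) and *Akap5* (0.197), 1 each with *Ager* (0.044) and *Cav1* (0.174), and 0 with *Hopx* (0.221) and *Pdpn* (0.085). Of 9 endothelial markers measured, 4 were called with *Hopx* (*Egfl7*, r = 0.492, *Tie1*, 0.481, *Cldn5*, 0.474, and *Cdh5*, 0.411) and 2 with *Cav1* (*Egfl7*, 0.561, and *Cldn5*, 0.425), with medians of 0.303 and 0.330. The median with *Cav2* was 0.031 with 0 called. Of 9 caveolar coat genes, 2 each were called as positive with *Hopx* and *Akap5*, 1 with *Rtkn2* and 0 with *Cav1*, and *Cav2* had 1 negative call. Type 2 markers gave 1 call over the 8 genes, a negative one with *Akap5*. *Pdpn* had 1 call among mesothelial markers, a negative one with *Msln* (r = -0.417), while *Akap5* had 1 negative and *Hopx* 1 positive call there. Of 3 lymphatic endothelial markers, 2 were called as negative with *Cav2* (median r = -0.425). In that list *Emp2* and *Akap5* had 1 negative call each and *Rtkn2* had 1 positive call. Summed endothelial markers ranged from 838 to 2261 over the lungs and their part in the *Hopx* and *Cav1* values was not tested.

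Between tissues, the same gene was compared across strains where it was above 1 TMM-normalized TPM in more than 50% of libraries of both. This left *Hopx*, *Emp2*, *Cav2* and *Akap5* for liver and lung, and *Emp2*, *Cav2* and *Akap5* for the other pairs. Of these 10 correlations 1 was called, *Akap5* in liver and kidney. Its r was 0.355 with a permutation p of 0.0142 and q of 0.071, and its rho was 0.319 (p = 0.0287), where 23.8% of 9076 genes were called as positive. Without the 2 farthest strains r was 0.277, and it was not called by Spearman's rho or without TMM. Lung was not called with either tissue for any of them, where 12.3% of genes were called between liver and lung and 15.2% between lung and kidney. For *Akap5*, r was 0.295 with liver (permutation p = 0.0444, q = 0.209) and 0.26 with kidney (p = 0.0776, q = 0.263). For *Emp2* these were 0.237 and 0.087, for *Cav2* 0.204 and 0.182, and *Hopx* had 0.050 between liver and lung.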

How the data were processed

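RNA from lung, liver and kidney of 47 CC strains (1 mouse each) was depleted of ribosomal RNA and sequenced as single 50-base reads. The authors aligned reads to a pseudo-genome of each strain (Build37/mm9, RefSeq) with STAR 2.5.3a and quantified them with RSEM. The deposited files give an expected count, TPM and FPKM per gene. The FPKM that the authors deposited was not used. Expected counts were rounded to whole numbers (25 were not whole). Tissues were compared with limma 3.58.1 (voom) and TMM factors from edgeR 4.0.16 in R 4.3.3, with tissue and strain as terms. The strain pairs the libraries because the same mouse gave all 3 tissues. Batch is not in the labels and was left out. Genes needed more than 1 CPM in at least 30% of libraries. Correlations used genes above 1 TMM-normalized TPM in more than 50% of libraries, rank inverse normal values and 100000 permutations. A DESeq2 1.42.0 Wald test and edgeR's quasi-likelihood test were alternatives, and the fits were tested on simulated data. Genes named were the 8, up to 5 with the largest lung against kidney change in each list and those against its majority, the 3 genes most like each of the 8, and cell markers beside a result. Of the genes most like *Akap5*, 1 is not reported here. Strains named for extreme values were chosen after these were seen. The 8 genes and the lists were chosen with earlier results of these data known.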

Additional observations from a re-analysis of the deposited data

How the results depend on the processing

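For the 6 genes tested, all 72 alternative values of liver against lung and all 72 of lung against kidney kept their direction and call. Between liver and kidney 57 of 69 did. There, total counts without TMM reversed *Rtkn2* (-0.61), *Emp2* (-0.89) and *Akap5* (-0.36), log2(TPM + 1) gave -0.13, -0.77 and -0.25, log2(TPM + 0.1) gave -0.45, -0.90 and -0.35, and the DESeq2 Wald test gave -0.02 for *Emp2*. *Cav1* passed the threshold at -1.29 with total counts and -1.04 with log2(TPM + 0.1). The 2 genes called there became 1 when only those tissues were fitted, where *Hopx* was not tested, and 5 with no fold threshold. The lung minus liver difference of the *Cav1* to *Cav2* ratio became -0.29 with a pseudocount of 1. It was -0.86 in the 7 strains with more than 3 counts, which are kept by counts that form the ratio, and the cause was not tested. Too few strains had such counts for liver against kidney. The 3 pairs called across lungs became 28 on TPM without TMM and 0 at q ≤ 0.01. The 1 call between tissues became 0 without TMM, by Spearman's rho and at q ≤ 0.01. Shares of all genes called were taken for the main settings only, so the counts under the alternatives are a description.

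Without the replicate block that pairs tissues of a mouse, the calls stayed at 6, 6 and 2 genes, and no call changed. The ratio differences of 1.77, 0.23 and 1.54 are the same by arithmetic there, as only the permutation test differs. Leaving out *Rn45s* and *Lars2*, CC015 and CC055, or CC001 for the ratio, and TMM within each tissue were chosen after seeing the data. With 1 mouse per strain, counts limit *Ager*, *Pdpn* and, outside lung, *Hopx*, *Cav1* and *Rtkn2*.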
